A study of Sus scrofa with 6 samples.

Results

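Transcripts of S100 alarmins and of inflammatory mediators were followed by age in cells of the ileum of male piglets. Of 10 genes chosen by symbol, 9 were among the 20648 genes of the count matrices, namely S100A8, S100A9, S100A12, IL1A, CXCL8, CXCL2, TNF, PTGS2 and OSM, while IL1RN was not analysed here. Single-cell libraries were made with the 10x Chromium system, which tags each captured transcript with a cell barcode and a unique molecular identifier (UMI), on days 0, 1, 3, 7, 14 and 21 after birth. The study's methods describe Large White piglets fed with maternal milk and without antibiotics or immunization, 5 at each age, and mucosal cells released with EDTA and TrypLE Express, a procedure aimed at the epithelium. The labels give ileum as the tissue, while the series text names the cecum. Each age is 1 library, so age and library cannot be told apart, no test between days was possible, and every interval given covers counting error only (95%, exact).

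A barcode was taken as a cell when it held at least 800 UMIs and 200 genes, which left 82435 cells (12275 to 16472 per library) with a median of 3352 to 4447.5 UMIs. The libraries held 77391932 to 100348769 UMIs in total. Myeloid cells were those with at least 5 UMIs of LYZ, CST3 and AIF1 together and at most 1 UMI of the T cell receptor genes CD3E and CD3G. There were 814, 1350, 303, 54, 161 and 17 of them on days 0, 1, 3, 7, 14 and 21. They were split at 3000 UMIs into shallow cells (124, 269, 81, 13, 70 and 11) and deep cells (690, 1081, 222, 41, 91 and 6). All remaining cells served as background, as did barcodes with at most 100 UMIs, most of which hold free RNA rather than a cell. Levels are UMIs of a gene per 10000 UMIs summed over a class of cells. Different libraries shared 793 of 81641 distinct barcodes, and no barcode was rich in S100 transcripts on day 1 and on another day.

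The myeloid label was checked against markers of other lineages. C1QA, C1QB, CD14 and FCN1 were present, but at least 2 UMIs of B, T and NK, epithelial or stromal markers stood in 80.8, 69.4, 57.4, 72.2, 54.0 and 41.2% of the myeloid cells of the 6 libraries, in order of age. Among deep cells of day 0, which had a median of 16696.5 UMIs, epithelial markers were the highest list in 66.2%. Values are therefore also given for the 156, 413, 129, 15, 74 and 10 myeloid cells with fewer than 2 such UMIs, called marker-clean below. Endothelial and mast cell markers were not used in this filter. Cells led by the endothelial list numbered 19 and those led by the mast cell list 18 among the 156 of day 0, and 50 and 13 among the 413 of day 1. The part of mixed barcodes in the results was not tested, and no doublet caller was run.

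S100A8 and S100A9 form calprotectin, a calcium- and zinc-binding complex that makes up much of the soluble protein of neutrophils and is also made by freshly recruited monocytes, and S100A12 is a related ligand of the receptor RAGE. Released from stressed or activated phagocytes, all 3 act as alarmins, and calprotectin in stool is a clinical marker of gut inflammation. The remaining members are made by phagocytes and barrier cells after microbial or tissue signals. IL1A is an IL-1 receptor ligand, CXCL8 and CXCL2 are chemokines that attract neutrophils, TNF is a broadly acting cytokine, PTGS2 is the inducible cyclooxygenase of prostaglandin synthesis, and OSM is a cytokine of the IL-6 family that acts on stromal cells.

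In the RefSeq annotation of the pig genome build Sscrofa11.1, the alarmin genes lie side by side on chromosome 4. S100A8 spans 96209670 to 96210603, S100A12 spans 96225691 to 96227030, and S100A9 spans 96236114 to 96238989, a stretch of 29320 bases in all. CXCL8 (69932646 to 69935861) and CXCL2 (70157253 to 70159145) share chromosome 8, with 221391 bases between them. IL1A is on chromosome 3 (43718320 to 43731668), TNF on chromosome 7 (23699635 to 23702393), PTGS2 on chromosome 9 (127850164 to 127858866) and OSM on chromosome 14 (47242767 to 47246836). The row named COX2 is the mitochondrial cytochrome oxidase subunit (8542625 UMIs) and not PTGS2 (2095 UMIs).

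The S100 transcripts were almost wholly a feature of the day 1 library. It held 95.97% of the 90599 UMIs of S100A8, S100A9 and S100A12 in called cells, against 0.359% in the day 0 library, 0.817, 0.262 and 2.59% in those of days 3, 7 and 14, and 0.0033% (3 UMIs) in that of day 21. The mediators were spread more widely. Day 1 held 72.8% of 5707 UMIs of IL1A, 72.1% of 2761 of OSM, 69.9% of 16391 of CXCL2, 63.5% of 17460 of CXCL8 and 57.7% of 2095 of PTGS2. TNF stood apart with 24.97% of its 22062 UMIs on day 1, 24.6% on day 3 and 21.1% on day 7.

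S100A9, the partner that stabilizes S100A8 in calprotectin, was the most abundant of the trio. In myeloid cells its level over the 6 ages was 0.037 (0.0288–0.0469), 17.4 (17.2–17.6), 1.01 (0.893–1.13), 1.72 (1.37–2.14), 11.9 (11.2–12.7) and 0.152 (1 UMI). Day 1 was thus the highest and day 14 the next, and their intervals did not overlap those of any other day. In marker-clean cells the level was 0.982, 54.8, 0.953, 10.9 and 15.9 on days 0 to 14, and no UMI was seen in 10 cells on day 21 (3 counts would be a level of 1.23). Days 0 and 3 did not differ beyond counting error in these cells.

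S100A8, the other subunit of calprotectin, followed the same order. Its level in myeloid cells was 0.0118 (0.0074–0.0179), 6.13 (6.02–6.25), 0.282 (0.223–0.353), 0.872 (0.626–1.18), 2.72 (2.38–3.104) and 0.152 (1 UMI). In marker-clean cells it was 0.279, 19.1, 0.179, 4.82 and 3.85 on days 0 to 14, and there days 7 and 14 had overlapping intervals (3.15–7.06 and 3.02–4.84).

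S100A12, which signals through RAGE, lay between the others in myeloid cells on days 0, 1, 3 and 14. Its level in myeloid cells was 0.0204, 10.4, 0.653, 0.638 and 5.67 on days 0 to 14, with no UMI in the 17 cells of day 21. Days 3 and 7 could not be separated (0.560–0.756 and 0.431–0.911). The trio kept similar proportions over these days, with S100A9 at 51.3 to 58.7% of the 3 genes' UMIs, S100A12 at 19.7 to 33.6% and S100A8 at 13.4 to 26.97%.

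**Figure D1:**
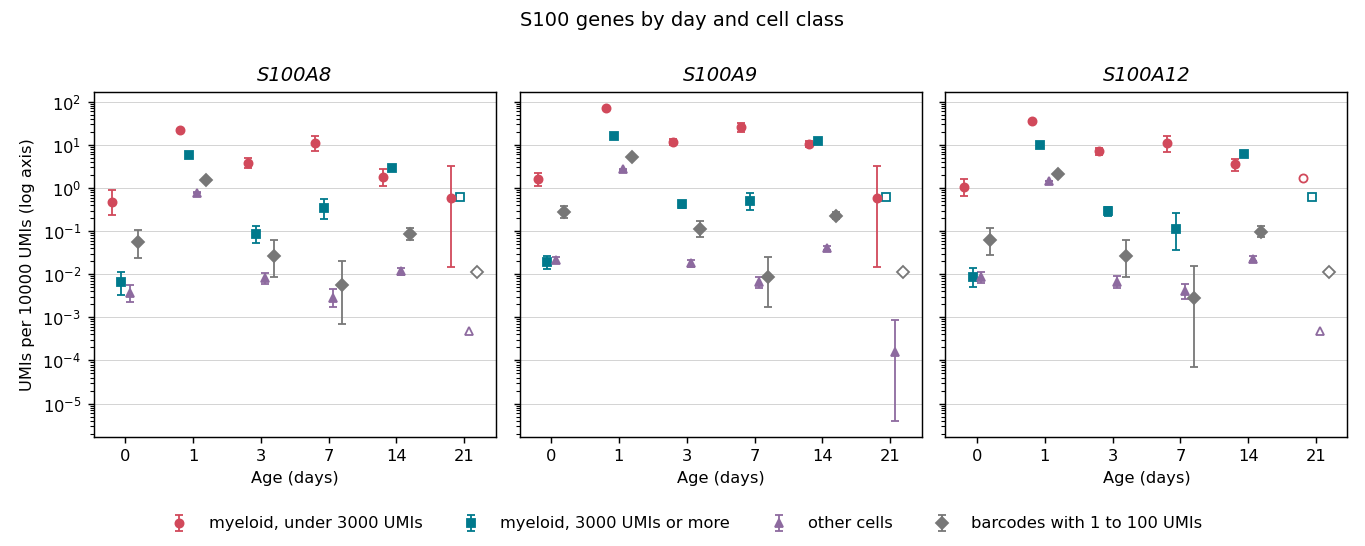
Levels of S100A8, S100A9 and S100A12 (UMIs per 10000 UMIs, log axis) by day after birth in shallow myeloid cells, deep myeloid cells, other cells and barcodes with at most 100 UMIs. Bars are exact 95% Poisson intervals, and open markers stand at the level that 3 counts would give where no UMI was seen. Day 1 is the highest day in every class, with S100A9 at 70.7 in shallow, 15.9 in deep and 2.70 in other cells.

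The summed S100 level in myeloid cells rose from 0.0692 (0.0578–0.0823) on day 0 to 33.9 (33.6–34.2) on day 1, a ratio of 490 (412–586). The ratios were 519 (343–829) for S100A8, 469 (371–603) for S100A9 and 509 (371–720) for S100A12. In marker-clean cells the same sum went from 1.80 to 108, a ratio of 59.8. The direction held, with a much smaller size. The day 0 denominator was small: 1 shallow cell held 93.9% of the S100 UMIs of shallow cells, and 1 deep cell held 47.6% of those of deep cells. Without both cells the ratio in the whole class was 1706. Both are among the 156 marker-clean cells of day 0, with 62 and 30 S100 UMIs, so the ratio of 59.8 rested on them too.

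All 9 measured members were at least 2-fold higher on day 1 than on day 0 in myeloid cells, as were 12.9% of all genes tested, and the same 9 were higher in marker-clean cells, as were 10.2% of genes. The median fold over the members was 21.9 beside 1.01 over all genes, and 7.18 beside 0.987 in marker-clean cells. From day 1 to day 3, 7 members fell at least 2-fold (16.5% of genes did), the exceptions being TNF and PTGS2. In marker-clean cells 8 fell, with TNF the exception (13.8% of genes). The median fold over the members was 0.0967 beside 1.14 over all genes, and 0.0784 beside 1.16 in marker-clean cells. The day 1 library stands in both comparisons.

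The size of the fall differed by gene. In myeloid cells S100A8 was 21.7-fold, S100A9 17.2-fold and S100A12 15.9-fold lower on day 3 than on day 1, OSM was 17.1-fold and CXCL8 10.3-fold lower, and CXCL2 (5.39-fold), IL1A (4.76-fold), TNF (1.61-fold) and PTGS2 (1.33-fold) fell less. Marker-clean cells gave 107-fold, 57.6-fold and 84.1-fold for S100A8, S100A9 and S100A12, and 2.36-fold for PTGS2.

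Later changes depended on the cells taken. From day 3 to day 7, 3 members (S100A8, IL1A and OSM) were at least 2-fold higher, where 11.2% of genes were. From day 7 to day 14, 7 members were at least 2-fold higher (15.6% of genes) and CXCL2 was lower (14.7% of genes), with ratios of 8.88 for S100A12, 6.91 for S100A9 and 3.12 for S100A8. The summed S100 level was 22.4-fold higher on day 14 in deep cells and 0.333 times the day 7 level in shallow cells, and in marker-clean cells the ratio was 0.799 for S100A8 and 0.0712 for CXCL8. Day 7 had 54 myeloid cells, of which 15 were marker-clean.

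Within a day the S100 UMIs were held by few cells. Cells with at least 20 S100 UMIs, called S100-rich, numbered 4, 680, 7, 3, 29 and 0 in order of age. This was 5.38% (4.99–5.79%) of the cells of day 1 and 0.176% (0.118–0.253%) of those of day 14, and 0 of 14657 cells on day 21 allows a share of up to 0.0205% by 3 counts, or 0.0252% by the exact upper limit. S100-rich cells are a range of a count and not a cell type: on day 1 another 126 cells had 10 to 19 S100 UMIs, and 197 had 20 to 39. The 680 cells held 95.8% of the S100 UMIs of day 1. The highest count in a cell was 973 S100 UMIs, and the highest share of a cell's UMIs from the 3 genes was 33.6%.

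Of the 680 S100-rich cells of day 1, 354 were in the myeloid class (71 shallow and 283 deep, median 5025 UMIs) and 326 were outside it (median 1230.5 UMIs). The median share of a cell's UMIs taken by the trio was 3.37% in the shallow, 2.23% in the deep and 3.54% in the outside cells. By their highest marker list, 196 of the 326 had no lineage (of 2495 such cells outside the myeloid class), 94 led with T and NK markers (of 2154), 20 with B markers (of 4415), 10 with epithelial markers (of 1462), 4 with endothelial markers and 2 with stromal markers. S100 transcripts were thus not confined to cells that met the LYZ, CST3 and AIF1 rule.

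**Figure D2:**
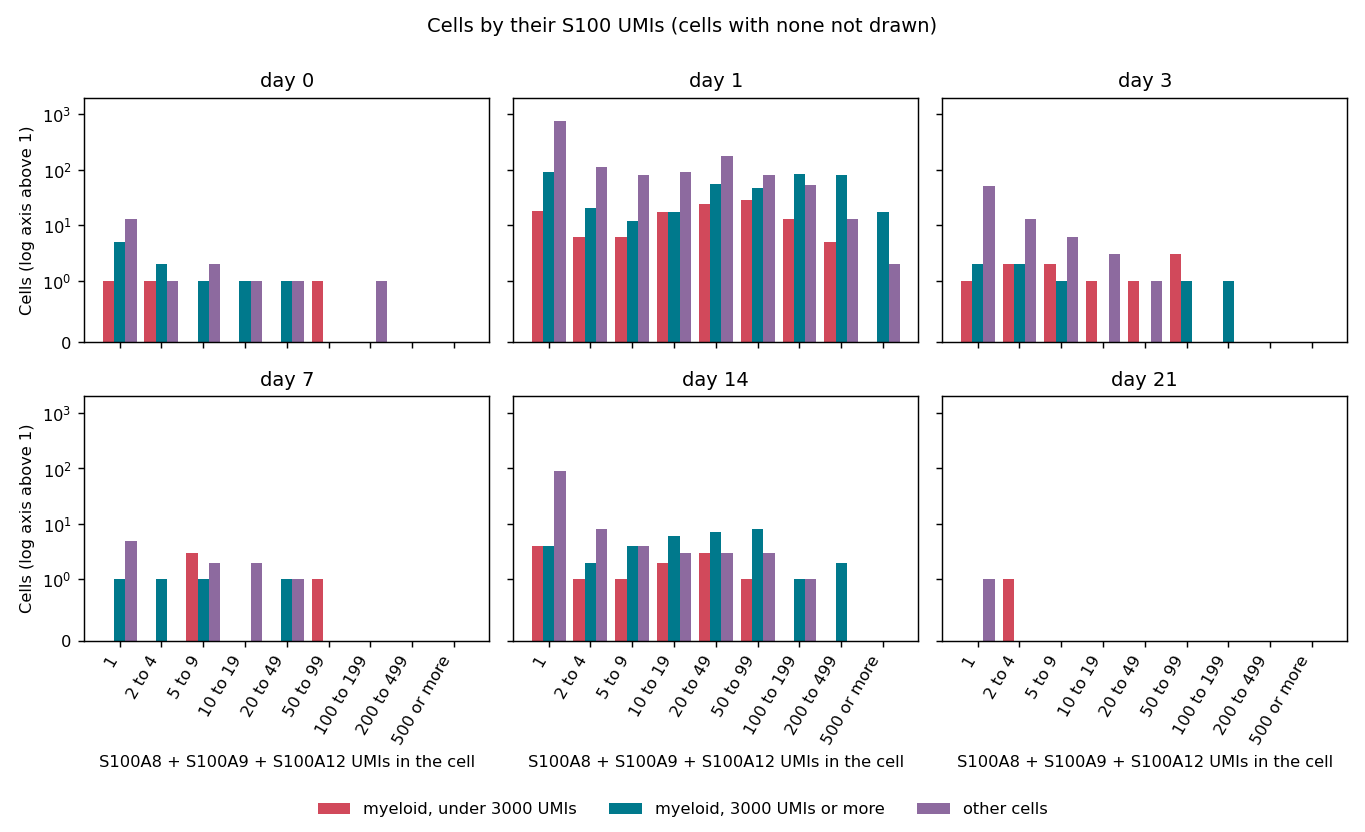
Number of cells (vertical axis, log above 1) by their summed UMIs of S100A8, S100A9 and S100A12 (horizontal axis, ranges of UMIs per cell), in 1 panel per day, with bars for shallow myeloid, deep myeloid and other cells and with cells without an S100 UMI left out. Day 1 has 680 cells at 20 UMIs or more, day 14 has 29, and the other days have 0 to 7.

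Detection in single cells gave the same order of classes. Each cell was thinned to 800 UMIs so that depth did not set the share. On day 1, 28.9% of 1350 thinned myeloid cells had a UMI of S100A9 (36.1% before thinning, median 8453.5 UMIs), against 5.52% of other cells (9.25% before, median 3422 UMIs). The thinned shares were 24.0% against 3.74% for S100A8 and 25.6% against 4.35% for S100A12. The thinned S100A9 share of myeloid cells was 0.614% on day 0, then 3.63, 11.11 and 20.5% on days 3, 7 and 14, and 5.88% (1 of 17 cells) on day 21. A second random thinning, the one used for co-detection in the same cells, gave 28.4% for S100A9, 22.7% for S100A8 and 27.04% for S100A12 on day 1 and 16.1% for S100A9 on day 14.

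Free RNA was read from barcodes with at most 100 UMIs. Their summed S100 level was 0.397, 8.89, 0.166, 0.0171 and 0.412 on days 0, 1, 3, 7 and 14, with no UMI on day 21, whereas all called cells together had 0.0421, 12.3, 0.111, 0.0373 and 0.261. On days 0, 3 and 14 the S100 level was therefore lower in called cells than in near-empty barcodes (ratios of 0.106, 0.671 and 0.633). On day 1 it was 1.38-fold higher in called cells, and on day 7 it was higher there too (0.0373 against 0.0171). The S100 level of day 1 in non-myeloid cells that were not S100-rich was 0.298 in B-led, 0.941 in T and NK-led, 0.228 in epithelial-led, 0.316 in stromal-led and 0.145 in endothelial-led cells. These values follow from leaving the S100-rich cells out, and with them the levels were 0.923, 6.93, 0.500, 0.851 and 2.88, each under the level of near-empty barcodes. In cells without a lineage the level was 1.72 without and 25.1 with them. For the 6 mediators together, called cells stood at 0.870 to 1.25 times the near-empty barcodes on every day.

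The myeloid class had more S100 RNA than other cells on every day from 0 to 14, but on day 0 its level (0.0692) was under that of near-empty barcodes (0.397). The summed level was 2.07, 6.89, 59.0, 240 and 270 times that of other cells, and the class held 39.7, 70.2, 71.6, 64.1 and 71.4% of the S100 UMIs of called cells. On day 0 this rested on few cells, since 1 cell held 48.1% of the myeloid S100 UMIs and 1 cell held 62.2% of those of other cells. Days 3 and 7 rested on few cells too. On day 3, 6 myeloid cells were S100-rich, and with 1 other cell they held 71.1% of the S100 UMIs of called cells. On day 7, 2 myeloid cells held 87 and 32 of the 152 myeloid S100 UMIs. At least 2-fold higher in myeloid cells were 3 of 9 members on day 0 (S100A8, S100A12 and IL1A, with 5.11% of all genes), 8 on day 1 (13.4% of genes), 7 on day 3 (27.6%), 8 on day 7 (34.7%) and 8 on day 14 (28.3%). TNF was the one member counted on none of these days.

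Shallow and deep myeloid cells differed in S100 RNA, in a direction that depended on the day. The summed level was 3.17 in shallow and 0.0342 in deep cells on day 0, 128 and 31.2 on day 1, 22.4 and 0.794 on day 3, 47.4 and 0.940 on day 7 (13 shallow cells), and 15.8 and 21.0 on day 14. The ratio of shallow to deep was thus 92.6, 4.11, 28.2 and 50.4 on days 0, 1, 3 and 7, and 0.751 (0.641–0.875) on day 14. In marker-clean cells it was 4.78, 1.14, 28.6 and 0.0664 on days 0, 1, 7 and 14. The value of day 3 there, 487 (85.4–19405), rested on 1 cell with 79.6% of the S100 UMIs and on a single UMI in the 62 deep cells. The marker-clean value of day 0 rested on 1 shallow cell with 62 of 63 UMIs, and that of day 7 on 9 shallow and 6 deep cells. In the whole class the day 0 ratio rested on the same shallow cell, with 62 of the 66 shallow UMIs. That ratio was 1.21 (0.0305–6.89) with the split at 2000 UMIs. With that split the ratio was 2.84 (1.98–3.95) on day 3 and 1.69 (0.610–3.77) on day 7, the latter not separable from 1. On day 7, 1 shallow cell held 87 of the 110 shallow S100 UMIs, and 1 deep cell held 32 of the 42 deep ones. The day 14 ratio turned with the limits too and was 1.11 (0.946–1.29) with a minimum of 1500 UMIs per cell and 2.85 with the split at 5000 UMIs.

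Of the 9 members, 8 were at least 2-fold higher in shallow cells on day 0 (29.3% of genes were) and 9 on day 1 (16.5%). On day 3, 5 of 8 with enough UMIs were higher (10.3%) and CXCL2 was lower (16.9%). On day 14, IL1A and OSM of 8 were higher (10.4%) and CXCL8 was lower (16.5%). OSM was 17.7, 11.8 and 2.09 times the deep level in shallow cells on days 0, 1 and 14. On day 3 it had 9 UMIs, too few to be counted, with a ratio of 14.2 (2.82–66.0). CXCL2 had no UMI in the 81 shallow cells of day 3 and was there at most 0.299 times the deep level.

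The genes that led each depth class show what else differed between shallow and deep cells. On day 1, OSM was among the 10 genes with the highest ratio of shallow to deep, beside C4BPA (16.8), RETN, a secreted product of monocytes (14.4), and TREM1, an amplifying receptor of phagocytes (12.4). The leading genes of deep cells included epithelial genes, with CDH1 (47.8) and CLDN15 (43.2) on day 1 and the brush border protease MEP1B (37.9) and the retinol carrier RBP2 (29.4) on day 0. The part of this epithelial RNA in the shallow to deep ratios of the members was not tested.

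**Figure D3:**
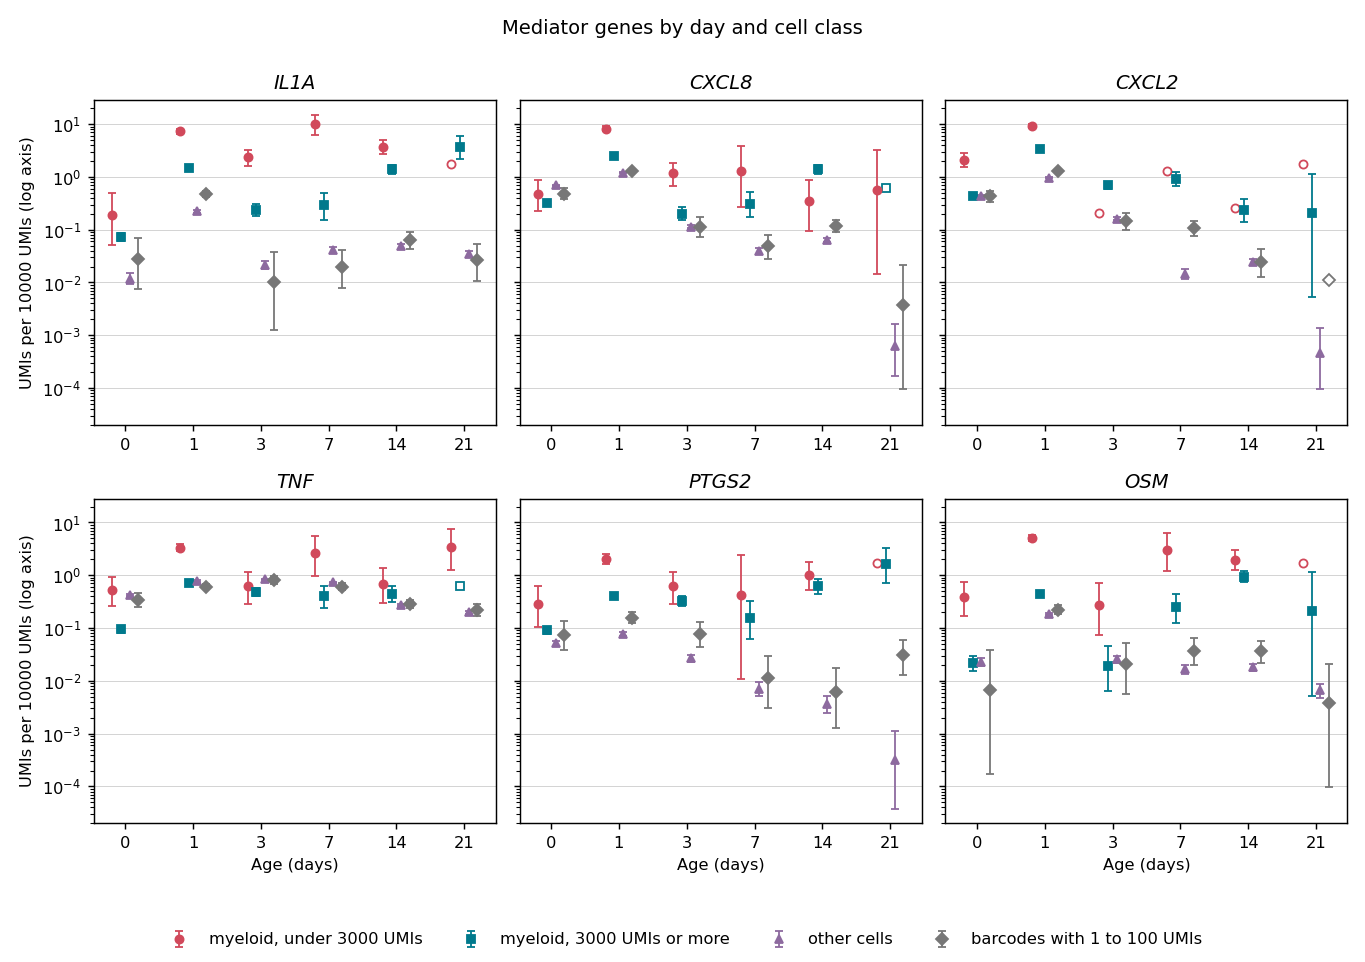
Levels of IL1A, CXCL8, CXCL2, TNF, PTGS2 and OSM (UMIs per 10000 UMIs, log axis) by day after birth, in the same classes of cells as for the S100 genes, with exact 95% Poisson intervals and open markers at the level of 3 counts where no UMI was seen. Day 1 is the highest day for CXCL8 and CXCL2 in shallow and in deep cells, whereas TNF in other cells stays between 0.199 and 0.832 over all days.

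IL1A, which can act as an alarmin when cells are damaged, was low at birth in the whole myeloid class and higher there on each later day. Its level over the 6 ages was 0.0751 (0.0632–0.0887), 1.66 (1.60–1.72), 0.348, 0.766, 1.73 (1.46–2.04) and 2.74 (1.63–4.33), the last from 18 UMIs in 17 cells. Days 1 and 14 did not differ beyond counting error. In marker-clean cells day 1 was the highest, at 3.64 (3.38–3.91), and the day 1 to day 0 ratio was 4.51 where the whole myeloid class gave 22.1. Marker-clean cells without an S100 UMI had IL1A at 0.829 (0.621–1.08) on day 0 and 0.212 (0.116–0.356) on day 3. In those cells the day 3 level was thus under that of birth. Myeloid cells were 6.38, 7.49, 16.3, 18.6, 35.7 and 78.4 times as high as other cells on the 6 days.

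The neutrophil-attracting chemokines CXCL8 and CXCL2 moved together from day 0 to day 3. CXCL8 stood at 0.328, 2.62, 0.253, 0.362 and 1.25 in myeloid cells on days 0 to 14, and CXCL2 at 0.453, 3.52, 0.653, 0.872 and 0.206. They parted on day 14, when CXCL8 was higher than on day 7 and CXCL2 lower, and in marker-clean cells both were low there (0.158 and 0.211, from 3 and 4 UMIs). Day 1 was 7.98-fold above day 0 for CXCL8 and 7.76-fold for CXCL2, and 8.94-fold and 5.46-fold in marker-clean cells. CXCL8 was the one mediator whose ratio was not lower in the cleaner cells.

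CXCL8 was not mainly a myeloid transcript at birth. On day 0 its level in myeloid cells was 0.477 (0.437–0.519) times that of other cells, and myeloid cells held 13.2% of its UMIs. Cells led by epithelial markers held 82.2% of the CXCL8 UMIs outside the myeloid class on day 0, at a level of 1.08, and 38.6% on day 1, at 1.93. Their level was then 0.609, 0.224 and 0.306 on days 3, 7 and 14. In T and NK-led cells it was 0.340, 1.52, 0.671, 0.245 and 1.75, and on day 14 these cells held 75.0% of the UMIs outside the myeloid class. Near-empty barcodes had CXCL8 at 0.479, 1.27, 0.114, 0.0485 and 0.120, under the epithelial-led level on each of these days and above the T and NK-led level on day 0. S100-rich cells outside the myeloid class held 1416 of the 6383 CXCL8 UMIs of other cells on day 1.

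Outside the myeloid class CXCL2 was highest in stromal-led and KIT-led cells on day 1. Stromal-led cells rose from 0.215 on day 0 to 4.30 (4.03–4.58) on day 1 and stood at 0.296 on day 3. On day 1 they were above the whole myeloid class (3.52), which also takes cells with markers of other lineages. Marker-clean myeloid cells of day 1 had CXCL2 at 12.8 when S100-rich and at 3.08 without an S100 UMI. The order of stromal-led and myeloid cells thus depended on the myeloid cells taken. Endothelial-led cells went from 0.445 to 1.57, T and NK-led cells from 0.762 to 1.55 and epithelial-led cells from 0.435 to 0.939. Near-empty barcodes had CXCL2 at 0.431 and 1.29 on these days, so that the epithelial-led level of day 1 was not above that background. B-led cells stayed between 0.0031 and 0.112 on days 0 to 14.

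TNF was the member least tied to the myeloid class. In myeloid cells it was 0.0993, 0.791, 0.491, 0.511, 0.484 and 0.914 on the 6 days, and in other cells 0.423, 0.775, 0.832, 0.734, 0.278 and 0.199. The ratio of myeloid to other cells over days 0 to 14 was 0.235 (0.201–0.273), 1.02 (0.961–1.08), 0.591 (0.494–0.701), 0.696 (0.445–1.04) and 1.74 (1.24–2.38). In marker-clean cells it was 1.59, 1.83, 1.04 (0.787–1.34), 1.52 and 1.71 on days 0 to 14, so the deficit of days 0 and 3 was not seen there. Myeloid cells held 6.9, 25.8, 2.5, 0.5, 1.6 and 0.5% of the TNF UMIs.

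Outside the myeloid class, TNF lay mainly in lymphoid cells. In T and NK-led cells the level was 1.26, 2.07, 2.67, 0.778, 1.38 and 0.659 over the 6 days, and in B-led cells 0.299, 0.335, 0.502, 0.750, 0.241 and 0.193. Near-empty barcodes had TNF at 0.342, 0.608, 0.820, 0.611, 0.290 and 0.219, so that B-led cells were above that background on day 7 alone and T and NK-led cells on every day. The share of the TNF UMIs outside the myeloid class that B-led cells held was 11.6, 15.3, 48.5, 89.6, 83.0 and 93.9%, while these cells numbered 2652 on day 0 and 15060 on day 14. The highest TNF level was in a small set led by KIT (16, 18 and 96 cells outside the myeloid class on days 0, 1 and 3), at 6.08, 7.29 and 4.203. No UMI of the mast cell protease CPA3 was seen in them, while the mast cell receptor gene MS4A2 had 16, 7 and 0 UMIs, so the set is left without a cell type name. The same cells had CXCL8 at 4.77, 6.99 and 1.71.

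**Figure D4:**
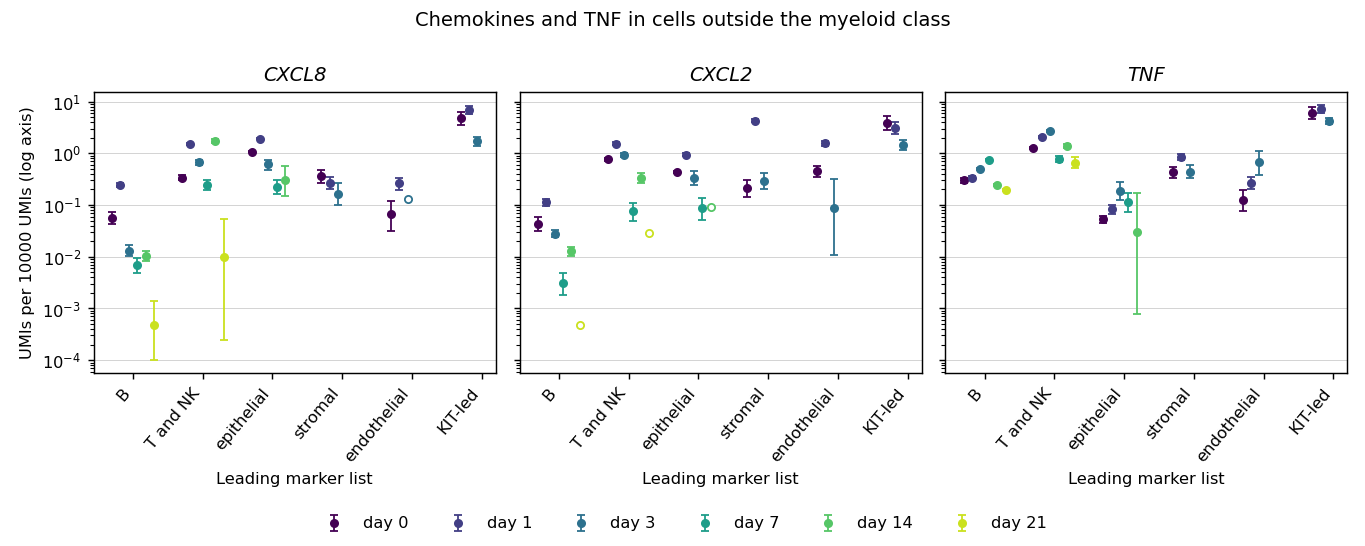
Levels of CXCL8, CXCL2 and TNF (UMIs per 10000 UMIs, log axis) in cells outside the myeloid class, grouped by their highest marker list (horizontal axis) and coloured by day, for groups of at least 15 cells. Bars are exact 95% Poisson intervals, and open markers stand at the level of 3 counts where no UMI was seen. CXCL2 in stromal-led cells peaks on day 1 at 4.30, and TNF in T and NK-led cells stands between 0.659 and 2.67.

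PTGS2, the inducible enzyme of prostaglandin synthesis, was low in every class. Its level in myeloid cells was 0.0923, 0.447, 0.337, 0.170, 0.678 and 1.22 on the 6 days, the last from 8 UMIs. Day 3 was below day 1, with intervals that did not overlap (0.272–0.414 and 0.417–0.479). It was 4.85-fold higher on day 1 than on day 0, and 3.05-fold in marker-clean cells. Myeloid cells were 1.80, 5.85, 12.5, 24.4 and 189 times as high as the pooled other cells on days 0 to 14. Among these, stromal-led cells stood at 0.115 (0.0655–0.186) on day 0 and 0.464 (0.379–0.562) on day 1. These levels did not differ from those of the whole myeloid class beyond counting error. Marker-clean myeloid cells of day 1 lay on either side of the stromal-led level, at 2.33 when S100-rich and 0.232 (0.154–0.336) without an S100 UMI.

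OSM, a cytokine of activated monocytes and neutrophils, was high on the same days as the S100 genes. In myeloid cells it stood at 0.0258, 0.565, 0.0330, 0.383 and 1.09 on days 0 to 14. Marker-clean cells had 0.264, 1.90, 0.0447, 2.04 and 2.32, so that days 1, 7 and 14 had overlapping intervals (1.71–2.09, 1.02–3.65 and 1.69–3.12). Days 0 and 3 were the low days in both sets of cells.

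On day 1 the transcripts met in the same cells. In the second thinning, of 384 myeloid cells with S100A9, 90.1% also had S100A12 and 75.5% had S100A8, against 2.0 and 1.7% of cells without S100A9. Of cells with OSM (127) 88.2% had S100A9, of cells with PTGS2 (102) 71.6%, with IL1A (253) 62.8%, with TNF (140) 57.9%, with CXCL8 (216) 55.6% and with CXCL2 (273) 47.3%. Among S100A9-positive cells 29.2% had OSM and 19.01% had PTGS2, against 1.6 and 3.0% of S100A9-negative cells, and for CXCL2 the shares were 33.6 and 14.9%. In the 413 marker-clean cells the shares with and without S100A9 were 35.8 and 5.3% for CXCL8, 33.8 and 1.9% for OSM and 29.8 and 14.1% for CXCL2. These shares describe cells of 1 library.

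Marker-clean myeloid cells of day 1 were then set side by side by their S100 count, 133 S100-rich cells (median 3880 UMIs) and 229 cells without any S100 UMI (median 3420 UMIs). Every mediator was higher in the S100-rich cells: OSM 5.04 against 0.191, PTGS2 2.33 against 0.232, CXCL8 8.95 against 1.00, IL1A 8.49 against 1.17, TNF 2.91 against 0.623 and CXCL2 12.8 against 3.08. CXCL2 had the smallest contrast and OSM the largest of the 6. IL1B, the secreted IL-1 receptor ligand, was 44.3 against 2.32.

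The pair of sets also differed in genes of phagocyte type. S100-rich cells had the monocyte genes CD14 (21.1 against 0.581), FCN1 (24.9 against 0.531) and VCAN (6.29 against 0.166), while cells without S100 UMIs had the complement genes of resident macrophages, C1QA (14.8 against 0.0612), C1QB (11.9 against 0.0306) and C1QC (6.31 against 0.0306). Of the genes in the rule, LYZ was 27.6 against 2.41 and CST3 was 4.39 against 93.9, while AIF1 was high in both (19.5 against 25.2). The neutrophil granule genes ELANE and MPO had no UMI in myeloid cells of any library. On day 1 MMP9 (0.0795 against 0.0256), LTF (0.0511 against 0.00398) and AZU1 (0.0306 against 0.00019) were higher in the whole myeloid class than in other cells, though low. Between the 2 marker-clean sets the MMP9 level went the other way, at 0.214 (14 UMIs) in S100-rich cells against 0.531 (64 UMIs). It was found in 6.0% of the S100-rich cells and 2.2% of those without S100 UMIs.

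**Figure D5:**
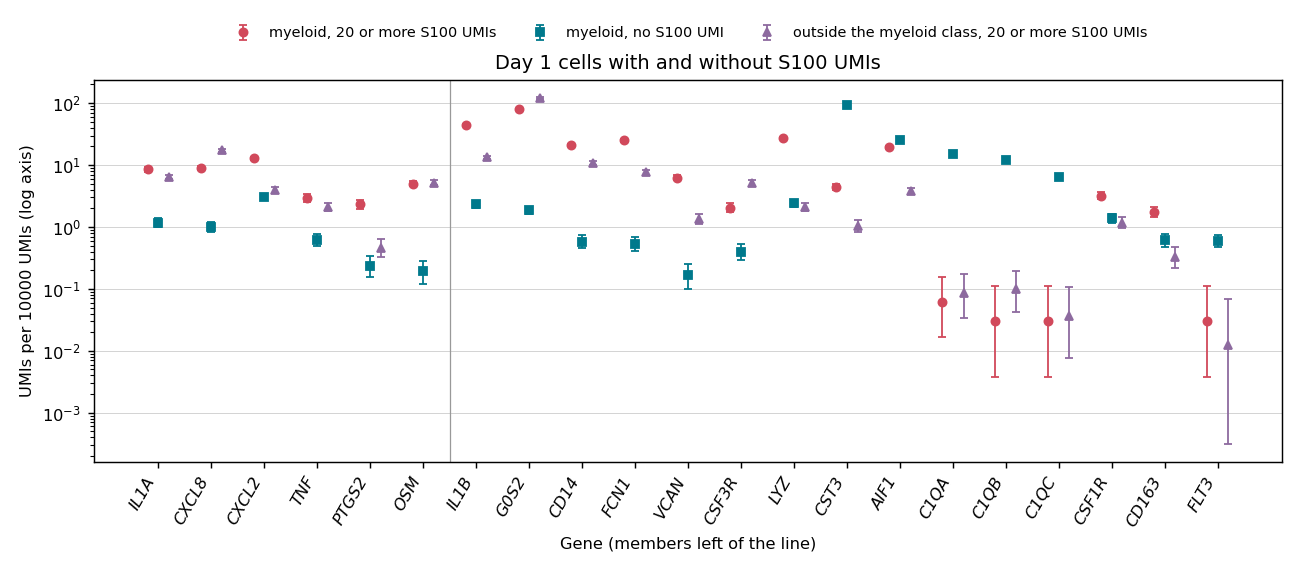
Levels on day 1 (UMIs per 10000 UMIs, log axis) of the mediators (left of the line) and of phagocyte genes (right of it) in marker-clean S100-rich myeloid cells (133), marker-clean myeloid cells without an S100 UMI (229) and S100-rich cells outside the myeloid class (326), with exact 95% Poisson intervals. The 326 cells were not filtered by markers of other lineages. All 6 mediators are higher in the S100-rich myeloid cells than in those without S100 UMIs, and C1QA, C1QB and C1QC are lower.

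The 326 S100-rich cells outside the myeloid class shared some of this profile. Unlike the 2 marker-clean sets, they were not filtered by markers of other lineages, and 94 of them led with T and NK markers. The part of mixed barcodes in the differences below was not tested. CXCL8 was 17.4 in them, above both marker-clean sets, and G0S2, a gene high in neutrophils, was 121 against 79.5 and 1.88. The granulocyte receptors CSF3R (5.15 against 2.05 and 0.398) and CXCR2 (3.08 against 0.765 and 0.216) had the same order. OSM (5.16) was near the S100-rich myeloid level (5.04). IL1A (6.46 against 8.49) and TNF (2.10 against 2.91) were lower, with intervals that did not overlap. CXCL2 (4.02), PTGS2 (0.466), IL1B (13.3), CD14 (10.8), FCN1 (7.61) and VCAN (1.35) were lower too. Complement genes were as low as in S100-rich myeloid cells (C1QA 0.0858).

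On day 0, by contrast, the 147 marker-clean myeloid cells without S100 UMIs had IL1A at 0.829, CXCL8 at 0.438, CXCL2 at 1.16, TNF at 0.673, PTGS2 at 0.282 and OSM at 0.141. Next to the 229 cells of day 1 without S100 UMIs (1.17, 1.00, 3.08, 0.623, 0.232 and 0.191), CXCL8 and CXCL2 were more than 2-fold higher on day 1 and the other mediators were not. Near-empty barcodes also had more CXCL8 and CXCL2 on day 1 than on day 0. CXCL8 in the cells without S100 UMIs was not above that background on either day, whereas CXCL2 was above it on both. The part of free RNA in these rises was not tested. On day 3, 123 marker-clean myeloid cells without S100 UMIs had CXCL8 at 0.0758 and CXCL2 at 0.728, with no UMI of OSM.

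Other genes of these pathways were read from lists, as counts of members at least 2-fold higher on day 1 than on day 0 in marker-clean cells, where 10.2% of all genes were. Of 7 tested genes of the IL-1 family and its receptors 5 were higher, with IL1B at 0.542, 16.5, 1.68, 8.90 and 3.43 on days 0 to 14. Of 7 receptors of the members 2 were higher, TLR4, a receptor proposed for S100A8 and S100A9 (0.352 to 0.974), and TNFRSF1B, a TNF receptor (1.17 to 5.04). Of 8 prostaglandin genes, PTGES, the prostaglandin E synthase that acts after PTGS2 (0.0733 to 1.34), and TBXAS1 were higher, and of 3 inflammasome genes none was.

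Among 12 NF-kB response genes 6 were higher, including SOD2 (0.792 to 19.1), IER3 (0.660 to 4.60) and NFKBIA (4.69 to 9.76), and among 12 other cytokines and chemokines 9 were higher. CXCL10 did not follow the members later, at 1.20, 12.6, 0.774, 0 and 38.8 on days 0 to 14. Of 8 tested genes of the wider S100 family, S100A6 (2.87 to 12.8) and S100B were higher. From day 1 to day 3, 6 of 7 IL-1 family genes, 8 of 12 NF-kB genes, 10 of 12 cytokines, 6 of 8 S100 family genes, 5 of 8 prostaglandin genes and 3 of 7 receptors fell at least 2-fold, beside 13.8% of all genes. The summed level of neutrophil markers moved with the members, at 1.85, 31.4, 0.849, 24.5 and 13.3 in marker-clean cells on days 0 to 14. On day 1 most of this sum was 1 gene, G0S2. It had 5192 UMIs in the 133 S100-rich marker-clean cells alone, beside 6504 for the list in all marker-clean cells. The sum therefore does not speak for the other genes of the list. Monocyte and macrophage markers were at 83.8, 46.0, 6.79, 42.6 and 33.4 and dendritic markers at 7.43, 9.30, 13.03, 4.26 and 5.59 in the same cells, so these markers also differed between libraries, and the part of these markers in the result was not tested.

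The genes most like S100A8 over the 9 combinations of day and depth class with at least 20 cells were ATP6V0B (Pearson r = 0.982 of log levels), S100A9 (0.981), S100A12 (0.973), CD14 (0.951) and LOC110258711 (0.9503), out of 2692 genes compared. Those most like CXCL8 were FTH1 (0.976), TNFAIP6 (0.954), PDXK (0.933), ADGRE1 (0.930) and SOD2 (0.922). Points of 1 day share a library, so these values are descriptions.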

How the data were processed

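Per the labels, the authors aligned reads with STAR and counted UMIs with Cell Ranger (version 3.1.0) against the pig genome build susScr11. What was deposited are unnormalized UMI counts, in 6 matrices of 20648 genes and 6794880 listed barcodes. The labels name a third-version 10x kit and the study's methods the second version.

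The count sums were made here with Python 3.11.15, numpy 2.4.6, scipy 1.17.1 and pandas 2.3.3, and plots with matplotlib 3.10.9. Cells needed at least 800 UMIs and 200 genes, and no doublet caller was run. Cells outside the myeloid class were grouped by the marker list with the most UMIs, with at least 3 UMIs needed. For shares, each cell was thinned at random to 800 UMIs, with one draw for single genes and a separate draw for co-detection. Levels have exact Poisson intervals, shares exact binomial (Clopper-Pearson) intervals, and ratios the exact conditional interval of a pair of Poisson counts, all at 95% and for counting error only. With 1 library per day no test between samples exists, so a gene was counted as higher or lower when it had at least 20 UMIs over both sides and differed at least 2-fold. A side without UMIs was set to 3 counts. On counts simulated for the day 1 and day 0 myeloid comparison, with 200 of 20648 genes changed, 100% were recovered and 0.615% of unchanged genes were called. The changed genes were set further apart than the 2-fold limit and had more counts than the limit asks for. The counts had Poisson error alone, without differences between cells or libraries. These shares therefore cover counting error only and say nothing of uneven cells or of a library's own effect.

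The members and lists were chosen with earlier results of these data known. Named genes were all 9 measured members, genes of the lists, the 10 genes leading shallow or deep myeloid cells among those found in at least 25% of the higher class, and the 5 genes most like S100A8 and CXCL8 by Pearson correlation of log2(level + 0.1). S100P, IL36G, CXCR1, LIFR, PYCARD, CASP4, CAMP and a few other listed genes were not analysed here. Alternative limits, thinning, marker-clean cells, single-day omission and scaling were tried.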

Additional observations from a re-analysis of the deposited data

Results flagged for a closer look

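Several differences between classes of cells changed direction between days. In each, 1 day's interval lay above a ratio of 1 and another day's below it, and the difference between the days was not tested, since each day is 1 library. The ratio of shallow to deep myeloid cells for S100A8 was 73.6 on day 0 and 0.627 on day 14. For S100A12 it was 122 on day 0 and 0.585 on day 14, and for the 3 S100 genes together 92.6 and 0.751. The day 0 side of these rested on 1 shallow cell with 62 of the 66 UMIs, and the summed ratio was 1.21 (0.0305–6.89) with the split at 2000 UMIs. For CXCL8 the same ratio was 5.81 on day 3 and 0.246 on day 14. The ratio of myeloid to other cells for CXCL8 was 0.477 on day 0 and 19.6 on day 14. For TNF it was 0.235 on day 0 and 1.74 on day 14, and for the 6 mediators together 0.660 and 12.5. In marker-clean cells the TNF ratio was 1.59 on day 0 and 1.71 on day 14, and the mediator ratio 2.27 and 12.7, so those changes of direction were not seen there. The CXCL8 ratio there was 0.618 on day 0 and 2.49 (0.511–7.30, 3 UMIs) on day 14, the latter not separable from 1.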

How the results depend on the processing

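No paired analysis was possible because each day is 1 library. Under other settings 48 values were computed, for the summed ratios, the medians over days and the day 1 levels of near-empty barcodes. Of the ratios and medians 0 changed direction, and 16 of the 48 values moved by over 1.5 times. For single days the shallow to deep S100 ratio of day 14 turned from 0.751 to 1.11, 1.30 or 2.85. In each case the cause was not tested. The summed S100 ratio of day 1 to day 0 in myeloid cells (490) was 660 with at least 10 UMIs of LYZ, CST3 and AIF1, 185 as a mean over cells, 59.8 in marker-clean cells, 193 after thinning, 40.5 in shallow and 912 in deep cells. Chosen after seeing the data, it was 292 over all called cells, 942 without the highest shallow cell of day 0, 638 without the highest deep cell and 1706 without both. The mediator ratio (8.94) was 8.24 with at least 3 UMIs of the rule's genes, 4.95 in marker-clean cells, 8.36 after thinning, 8.52 in deep cells and 3.35 over all cells.

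The median over days of the shallow to deep S100 ratio (16.1) covered 4 days. It left out days 7 and 21, which had 13 and 11 shallow cells, under the minimum of 20. Over 4 days it was 20.1 with a minimum of 1500 UMIs, 5.01 as a mean over cells and 2.96 in marker-clean cells. After thinning it was 4.34, and with the split at 2000 it was 2.03. With at least 3 UMIs of the rule's genes it was 28.3, but over 5 days, as day 7 was then included. The limit and the set of days thus changed together there. Leaving out 1 of the 4 days of the reported median gave 4.11 to 28.2. A limit of 10 UMIs of the rule's genes and a split at 5000 gave no value, since a class had no S100 UMI. The median myeloid to other S100 ratio (59.0) covered 5 days and left out day 21. It was 134 and 89.7 with minimums of 500 and 1500 UMIs, and 298 and 49.9 with limits of 3 and 10 UMIs. Against cells without any UMI of the rule's genes it was 140, and without 1 day it was 32.9 to 149. For the mediators the median myeloid to other ratio (2.79) was 3.07, 3.23, 3.23, 3.85 and 3.41 under the same settings. It was 4.04 as a mean over cells, 2.69 without mitochondrial UMIs, 3.83 in marker-clean cells, 3.83 after thinning and 2.29 to 3.19 without 1 day. For both ratios the minimum of 500 UMIs and the limit of 3 UMIs gave medians over 6 days, with day 21 included. The limit and the set of days thus changed together there. The mediator median in marker-clean cells was over 4 days. Barcodes of 1 to 20 UMIs on day 1 had an S100 level of 13.4 beside 8.89 for those up to 100, and a mediator level of 4.33 beside 4.02. The number of myeloid cells, 54 and 17, limits days 7 and 21.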
